A study of Mus musculus with 8 samples.

Results

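In the list of PRDM10 peaks from ethanol-treated mouse embryonic stem cells (mESCs), 2 of 528 peaks lay at the 5′ end of *Prdm10* itself. The list from 4-hydroxytamoxifen (4-OHT)-treated cells, in which *Prdm10* had been deleted, held 0 of its 176 peaks there. The peaks were chosen by position alone, as all entries that overlapped the *Prdm10* gene body with 5 kb upstream and 1 kb downstream. Neither their signal nor the comparison of the treatments is part of that rule, although the gene was taken up with earlier results of these data known.

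PRDM10 was immunoprecipitated from mESCs, the cultured pluripotent cells of the early embryo, in 3 ChIP samples and 1 input sample for each treatment. Cells given ethanol (EtOH) for 24 h had the genotype Prdm10F/F; Rosa26-CreERT2. Cells given 50 nM 4-OHT for 24 h are labelled Prdm10del/del; Rosa26-CreERT2, so both carried the Cre recombinase that 4-OHT activates. Per the study's methods, cells were washed after the exposure and harvested for ChIP at a later time. The 3 ChIP samples of a treatment differed in antibody (2 rabbit polyclonals made in-house and 1 from Bethyl), and the labels do not say whether they came from separate cultures. The deposited lists are 1 per treatment, pooled over the antibodies, so no peak has a replicate error and no test of 1 locus between treatments was possible. The lists carry no read depth.

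PRDM10 belongs to the PRDM family, proteins that join a PR domain, related to the SET domain of histone methyltransferases, to C2H2 zinc fingers, the small zinc-binding folds that can read DNA sequence. A transcription factor that occupies the promoter of its own gene is a common arrangement, and such contacts can be part of positive or negative feedback. A ChIP-seq peak records where a protein was found on chromatin and does not show which way, if any, the gene responds.

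The stronger *Prdm10* peak was at chr9:31280644-31280945 in the mm10 (GRCm38) assembly and the weaker at chr9:31280896-31281082. The stretch of the stronger peak that lies in intron 1 of *Prdm10*, chr9:31280667-31280945 on the plus strand, is shown because it holds the matches to the PRDM10 sequence pattern described below. Capitals mark, from left to right, the full match and, in the reverse orientation, the site with 1 mismatch.
Intron 1 part of the stronger peak: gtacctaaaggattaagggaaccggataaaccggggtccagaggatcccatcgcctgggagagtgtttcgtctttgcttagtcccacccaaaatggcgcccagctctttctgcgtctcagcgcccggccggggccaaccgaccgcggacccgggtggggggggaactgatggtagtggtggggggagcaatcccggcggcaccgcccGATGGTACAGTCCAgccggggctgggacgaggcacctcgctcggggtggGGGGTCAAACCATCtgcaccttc
The weaker peak continues from there for 137 bases, chr9:31280946-31281082, with no further site.
Remainder of the weaker peak: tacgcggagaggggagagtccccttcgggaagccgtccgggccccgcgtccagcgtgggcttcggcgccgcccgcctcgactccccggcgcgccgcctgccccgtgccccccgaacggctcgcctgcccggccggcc

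The stronger peak had a signal value of 311.5, the enrichment given by the peak caller SPP, and ranked 146 of 528, within the top 27.7% of the EtOH list. The weaker peak had a signal value of 214.67 and ranked 202, within the top 38.3%. Both were above the median of the list, which was 131, by 2.37-fold and 1.63-fold, and below its maximum of 900. Both carried the highest possible IDR score of 1000, a measure of reproducibility between pseudo-replicates of the pooled reads, as did 504 of the 528 peaks. Both also had the highest FDR score of the list, 2.78, shared by 303 peaks. Neither score thus separated the *Prdm10* peaks from most of the list, whereas the signal value placed them in its upper part.

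**Figure D1:**
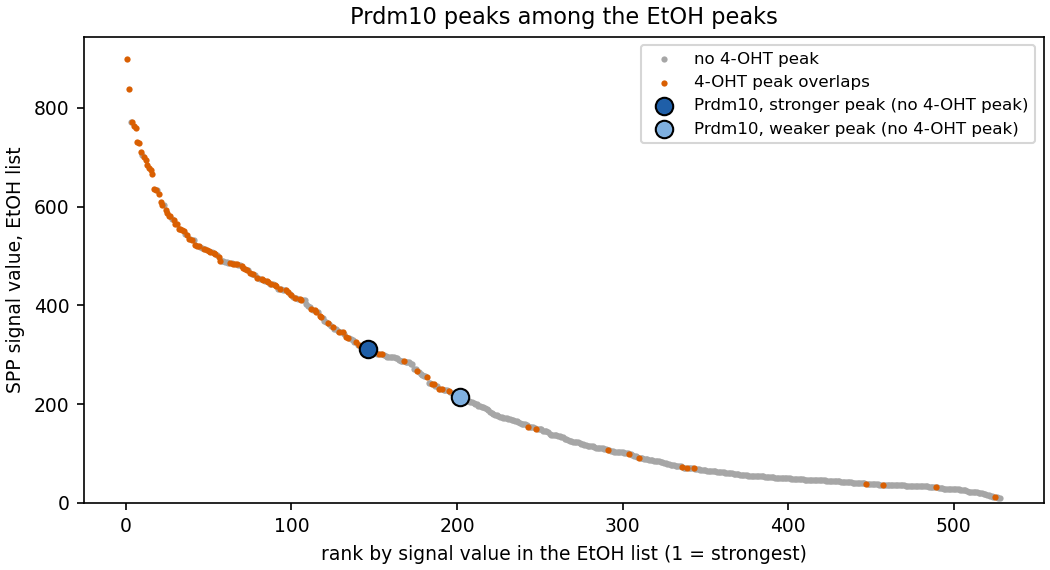
Signal value (vertical axis, SPP enrichment in the EtOH list, no unit) against rank (horizontal axis, 1 is the strongest) for all 528 EtOH peaks, 1 point per peak, coloured by whether a 4-OHT peak overlapped it. The *Prdm10* peaks, at ranks 146 and 202, are the large blue points and have no 4-OHT peak.

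The summits, at positions 31280804 and 31281014 of chromosome 9, were 210 bp apart, the intervals shared 50 bp and together they spanned 439 bp. Both peaks were narrow. The stronger was 302 bp wide and the weaker 187 bp, whereas 300 of the 528 peaks had the same width of 430 bp. Only 85 EtOH peaks were narrower than the stronger *Prdm10* peak and 25 were narrower than the weaker.

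*Prdm10* (ENSMUSG00000042496.18) occupies chr9:31280538-31381723 on the plus strand, and GENCODE vM21 gives it 5 transcripts with 5 different transcription start sites (TSSs). Prdm10-202 and Prdm10-204 start at the first bases of the gene, and the stronger summit lay 266 bp and 255 bp downstream of their TSSs. The weaker summit lay 476 bp and 465 bp downstream of them. The other transcripts start far downstream, Prdm10-205 by 33 kb, Prdm10-203 by 34.2 kb and Prdm10-201 by 34.6 kb from the first base of the gene. Prdm10-201, the transcript annotated as principal, was thus 34303 bp from the stronger summit. No peak of either list lay at any of these downstream TSSs.

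Relative to Prdm10-202 and Prdm10-204, the transcripts that start at the first bases of the gene, the peaks sat just past exon 1. Exon 1 is non-coding and ends at 31280662 in Prdm10-202 and at 31280666 in Prdm10-204, so that 19 or 23 bases of the stronger peak were in exon 1 and the other 283 or 279 bases in intron 1, depending on the transcript. The weaker peak lay wholly in intron 1. This intron is 32.8 kb long, and the first coding base of both transcripts, in exon 2, was 32.7 kb from the stronger summit.

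A non-coding gene faces *Prdm10* from the opposite strand. The lincRNA 4930517E14Rik (ENSMUSG00000111246.1), a gene with a single exon, runs on the minus strand from 31280992 to 31278021, so its TSS is 454 bp inside *Prdm10* and the genes share 455 bp. Its TSS was the nearest GENCODE TSS to both summits, 188 bp from the stronger and 22 bp from the weaker. The stronger summit fell within the lincRNA, whereas the weaker summit was 22 bp upstream of it. All 302 bp of the stronger peak and 97 bp of the weaker overlapped the lincRNA. By position alone the peaks cannot be assigned to *Prdm10* rather than to 4930517E14Rik.

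**Figure D2:**
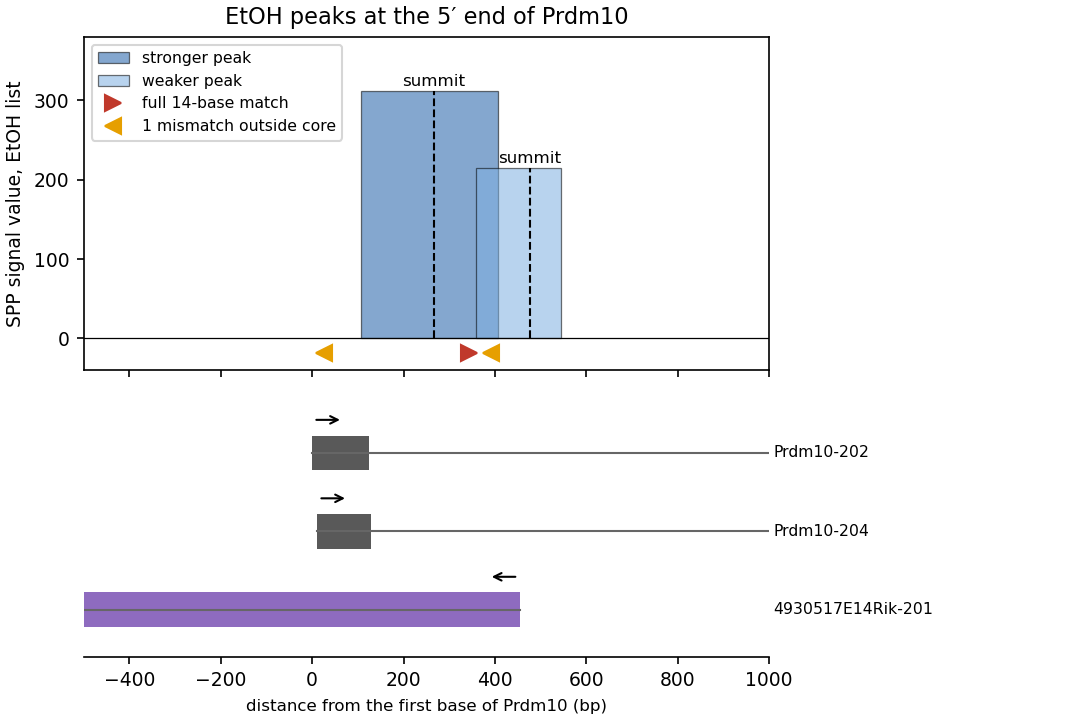
Upper panel, signal value (vertical axis, no unit) and extent of the *Prdm10* EtOH peaks against distance from the first base of *Prdm10* (horizontal axis, bp), with dashed lines at the summits and triangles, pointing along their strand, at matches to the 14-base pattern. Lower panel, exons (boxes), introns (lines) and transcription starts (arrows), showing both summits downstream of the Prdm10-202 and Prdm10-204 starts and on either side of the 4930517E14Rik start.

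A peak near opposed TSSs was not rare in the list. The summits of 118 of the 528 EtOH peaks (22.3%) lay within 1 kb of annotated TSSs on both strands, and those of 396 (75%) lay within 1 kb of any TSS. Among these 396 peaks the stronger *Prdm10* peak ranked 141 and the weaker ranked 193. With promoters taken instead as a TSS and the 1 kb upstream of it, the weaker peak counted as a promoter peak through the lincRNA and the stronger, being downstream of the *Prdm10* TSSs, did not.

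RefSeq models of the same assembly placed the starts partly elsewhere. One RefSeq start of *Prdm10*, at 31280549, was the same base as that of Prdm10-204. Another lay further upstream, at 31276110, with the stronger summit 4694 bp downstream of it. A RefSeq non-coding gene on the plus strand, Gm10910, started at 31280929, between the summits, 125 bp downstream of the stronger and 85 bp upstream of the weaker.

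Apart from 4930517E14Rik, none of the next genes on either side had a peak. Upstream, the pseudogene Gm7244 and *Aplp2*, a relative of the amyloid precursor protein gene, had 0 peaks in either list, as did *Nfrkb*, which encodes a subunit of the INO80 chromatin remodeller, and *Tmem45b*, a membrane protein gene, downstream. *Nfrkb* starts 4.47 kb past the end of *Prdm10*. The closest other EtOH peaks were 3.98 Mb upstream, with a signal value of 91.6, and 3.89 Mb downstream, with a signal value of 46.6. Between them lay no EtOH peak other than those at *Prdm10*, on a chromosome that held 27 EtOH peaks. Whether such spacing is unusual was not tested.

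The 4-OHT list addresses whether the signal at *Prdm10* persisted after deletion. No 4-OHT peak overlapped either *Prdm10* peak, nor was any found elsewhere in the gene or its flanks. Loss from the list was the usual outcome, since 107 of the 528 EtOH peaks (20.3%) were overlapped by a 4-OHT peak. The closest 4-OHT peaks on the chromosome were 10.3 Mb upstream, at *Dnmt1*, the maintenance DNA methyltransferase gene, and 32.3 Mb downstream, at *Aagab*, which encodes an adaptin-binding protein. They were the only 4-OHT peaks on chromosome 9 and overlapped the EtOH peaks ranked 93 and 25. Of the 27 EtOH peaks on the chromosome, these 2 had a 4-OHT peak and 4 had a higher signal value than the stronger *Prdm10* peak.

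Overlap with the 4-OHT list fell along the EtOH ranking. A 4-OHT peak was present at 84 of the 145 EtOH peaks (57.9%) ranked above the stronger *Prdm10* peak, at 11 of the 55 (20%) ranked between the *Prdm10* peaks, and at 12 of the 326 (3.68%) ranked below the weaker. The 25 peaks ranked just above and the 25 just below the stronger *Prdm10* peak had signal values from 285 to 367, and 13 of these 50 (26%, Wilson 95% interval 15.9 to 39.6) were overlapped by a 4-OHT peak. Around the weaker peak, with signal values from 173 to 266, the count was 7 of 50 (14%, Wilson 95% interval 6.95 to 26.2). These intervals cover the sampling of peaks only. The absence of *Prdm10* from the 4-OHT list was therefore shared by most peaks of like signal. Because signal values cannot be compared across the lists and the number of usable reads behind each list is not recorded in it, the absence means that no peak passed the threshold of the 4-OHT list, whose lowest signal value was 14.2, and not that PRDM10 was shown to be gone.

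The 3 peaks just above and the 3 just below the stronger *Prdm10* peak in rank had signal values from 308 to 317. They lay at *Bzw2*, which encodes a translation regulator, *Gnas*, which encodes a stimulatory G protein subunit, and *Cenpp*, which encodes a centromere protein (above), and at *Fam53c*, *Rusc2* and *Mbtd1*, the last encoding a chromatin-binding protein with MBT repeats (below). Of these 6, the *Cenpp* peak alone was overlapped by a 4-OHT peak, which ranked 32 of 176. Their summits were 28 to 148 bp from the nearest GENCODE TSS, and the stronger *Prdm10* summit was 188 bp from its own, or 125 bp when the RefSeq start of Gm10910 is counted. A full match to the PRDM10 pattern was found in the *Prdm10* peak and in 5 of the 6, the *Bzw2* peak being the exception. The *Fam53c* entry was the weaker of 2 summits listed for 1 interval of 607 bp, the stronger having a signal value of 489. Its match was counted over that whole interval.

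A pair of close summits such as that at *Prdm10* occurred 46 times in the EtOH list, at separations from 199 to 298 bp with a median of 206 bp. The 210 bp at *Prdm10* was ordinary, with 28 pairs closer. The balance of the summits was less so. At *Prdm10* the weaker summit had 68.9% of the signal value of the stronger, against a median of 23.4% over the 46 pairs, and 7 pairs had a higher percentage. Only 1 pair, at *Fam53c*, with values of 489 and 309, had a weaker summit of higher signal value than the 214.67 at *Prdm10*. Of the 46 pairs, 9 had a 4-OHT peak (19.6%), close to the 89 of 436 (20.4%) for single summits, and the *Prdm10* pair was among the 37 that had none.

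**Figure D3:**
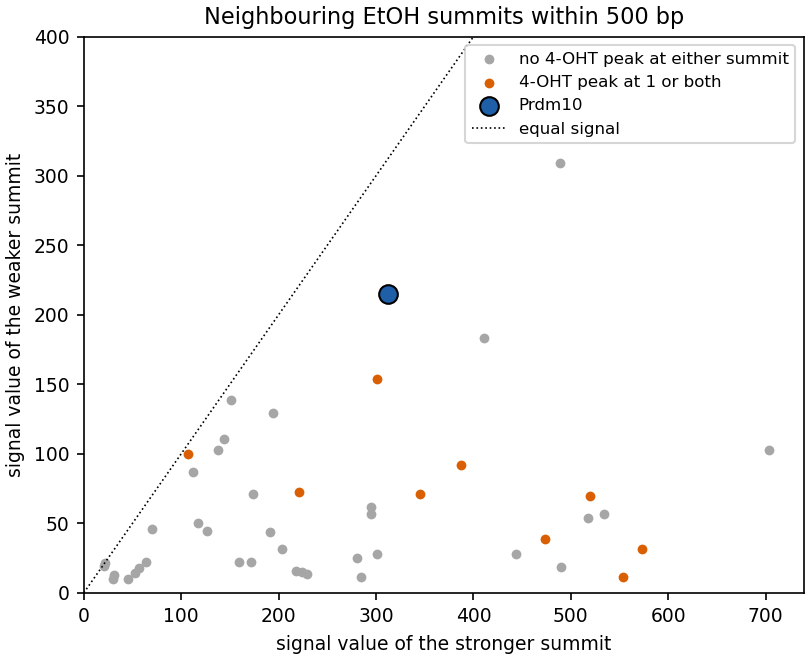
Signal value of the weaker summit (vertical axis, no unit) against that of the stronger (horizontal axis, no unit) for the 46 pairs of neighbouring EtOH summits within 500 bp, 1 point per pair, with a dotted line at equal signal. The *Prdm10* pair, at 312 and 215, has the second highest weaker summit, below *Fam53c* at 309.

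The PRDM10 pattern, the 14-base consensus of these peaks, was searched on both strands. Its fixed part, TGGTNNNNNCC, holds 6 defined bases and is called the core here. The stronger *Prdm10* peak contained 1 full match, GATGGTACAGTCCA, on the plus strand at chr9:31280874-31280887, with its centre 76.5 bp from the stronger summit and 133.5 bp from the weaker. A further site, at chr9:31280923-31280936 on the minus strand, matched the core and differed from the pattern only at position 14, counted from the 5′ end of the site. It lay within the overlap of the peaks, 125.5 bp from the stronger summit and 84.5 bp from the weaker. The sites were thus on opposite strands, 35 bases apart, and both between the summits, and the midpoint of the sites was 4 bp from the midpoint of the summits.

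The sites are shown with 8 flanking bases on each side, each read 5′ to 3′ on its own strand, beside the probe that the study used in gel shift assays and the mutated form of that probe. Capitals mark the 6 core bases, or the bases at those positions.
Prdm10 full match, plus strand: caccgcccgaTGGTacagtCCagccggggc
Prdm10 site with 1 mismatch, minus strand: aaggtgcagaTGGTttgacCCcccaccccg
Gel shift probe: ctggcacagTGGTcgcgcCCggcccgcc
Mutated probe: ctggcacagCAACcgcatTTggcccgcc
The 6 core bases were the same in both *Prdm10* sites and in the probe, and all 6 were changed in the mutated probe, which had 8 changed bases in all. The probe, like the second *Prdm10* site, missed the full pattern at 1 position, position 8. The probe, looked up after the values were seen, matched chr4:83486672-83486699, 226 bp from a TSS of *Psip1*, a chromatin reader gene, within the EtOH peak ranked 20, which was overlapped by a 4-OHT peak.

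A full match was present in 170 of the 528 EtOH peaks (32.2%), and in 259 of 21938 windows (1.18%) placed at the same distance from the gene start, 106 to 407 bp downstream, of protein-coding genes. A core was found in 326 EtOH peaks (61.7%) and in 13.5% of those windows. The windows were 302 bp long, like the stronger *Prdm10* peak, whereas most EtOH peaks were wider, so the shares cover unlike lengths. As the pattern was derived from these peaks, its frequency among them is not independent evidence. The exact word of the *Prdm10* match occurred in 1 of the 528 peaks, the *Prdm10* peak itself. Over the 204 full matches in EtOH peaks the median distance from the summit was 61.5 bp, and 87 were at least as far from it as the one at *Prdm10*. The weaker *Prdm10* peak held no full match on its own and shared the site with 1 mismatch.

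The RefSeq promoter table, with 250 bases before to 50 after a start, held 2 stretches for *Prdm10*. The first, chr9:31280299-31280598, ended 45 bp before the stronger peak. It contained no full match and 1 site with 1 mismatch outside the core, at chr9:31280558-31280571 on the minus strand in exon 1. The other, chr9:31313177-31313476, contained 0 full matches, 0 sites with 1 mismatch outside the core and 0 cores. Among 32851 such RefSeq promoters, 1.33% held a full match and 5.31% a match with at most 1 mismatch outside the core.

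Both peaks were rich in G and C, at 64.2% for the stronger and 77% for the weaker, against a median of 58.9% over EtOH peaks. Only 15 of the 528 peaks exceeded the weaker *Prdm10* peak in GC content, and 167 exceeded the stronger. The stronger peak held 23 CpG dinucleotides and the weaker 26, at 0.74 and 0.944 of the number expected from base composition, where the median over EtOH peaks was 0.695. No base of either peak was repeat-masked, as in 212 of the 528 peaks.

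The exon used to detect the deletion lay far from the peaks. Of the primers that the study used to measure exon 5 of *Prdm10*, the reverse primer lay at chr9:31325677-31325695, in an exon at chr9:31325627-31325834 that is 208 bp long and starts 44.8 kb downstream of the stronger summit. The forward primer lay at chr9:31318544-31318563, in the exon before it, so that the pair spans a junction and gives 97 bp of Prdm10-202 and Prdm10-205. Prdm10-204 has a shorter form of the exon, 154 bp, and Prdm10-201, the principal transcript, lacks it. Both lengths leave a remainder of 1 when divided by 3. In Prdm10-204, 98 codons precede the exon, and joining its neighbours gave a reading frame that stopped after 138 residues in place of 1115. Prdm10-205, with 98 codons before the exon as well, likewise gave 138 residues in place of 1172. Matches to a C2H2 zinc finger pattern numbered 11 in the full frame of Prdm10-204, 10 in that of Prdm10-205 and 0 in the 341 residues of Prdm10-202, and the shortened frames held 0. No EtOH or 4-OHT peak lay within 10 kb of this exon. The sequence under both EtOH peaks is thus not part of that exon, which lay 44.6 kb from the weaker summit. These distances are to the exon located by the primers, and the exact ends of the deleted segment were not determined here.

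**Figure D4:**
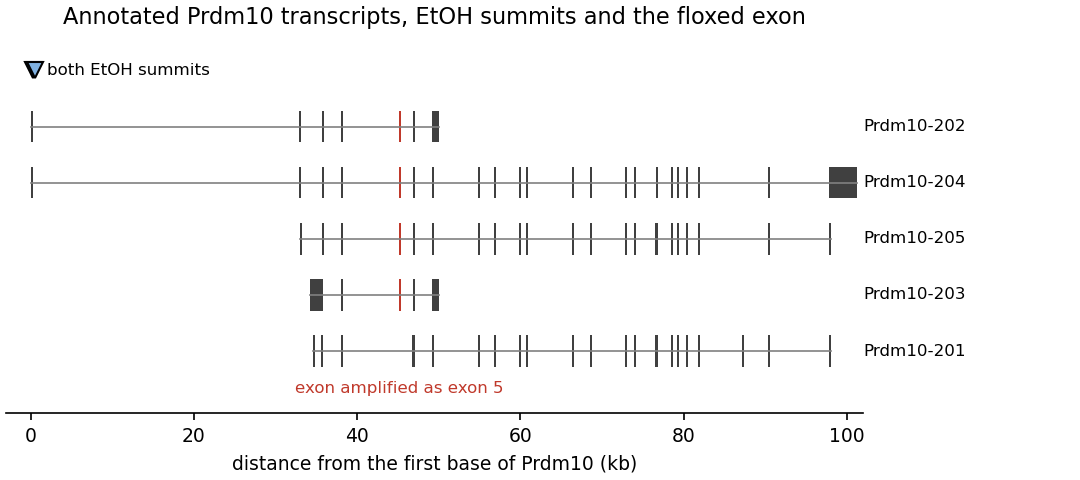
Exons (boxes, widened where short so as to be visible) and introns (lines) of the 5 annotated *Prdm10* transcripts against distance from the first base of the gene (horizontal axis, kb), with triangles at the EtOH summits and the exon amplified as exon 5 in red. The summits sit at the start of Prdm10-202 and Prdm10-204, 44.8 kb (stronger) and 44.6 kb (weaker) from the red exon and more than 30 kb from the starts of the other transcripts.

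Of 16 PRDM family genes, *Prdm10* among them, 2 had an EtOH peak from 5 kb upstream to 1 kb downstream and 0 had a 4-OHT peak, where 2.48% of all protein-coding genes had an EtOH peak and 0.733% a 4-OHT peak. Beside *Prdm10*, the other was *Prdm16*, known for its role in brown fat, whose peak had a signal value of 59.6, ranked 366 and lay 61788 bp from the nearest TSS of the gene. *Prdm14* and *Prdm15*, members known for roles in pluripotency, had none. None of 9 pluripotency factor genes, among them *Pou5f1*, *Sox2* and *Nanog*, had a peak in either list. With a share of 2.48% in the background, a count of 0 among 9 genes says little about that group.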

How the data were processed

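Per the labels and the study's methods, the authors aligned ChIP-seq reads of 8 samples to mm10 with BWA 0.7.13, used Picard 2.10.6 and SAMtools 1.2, called peaks with SPP on alignments pooled over 3 antibodies per treatment, removed blacklisted peaks and kept those reproducible by IDR. Each deposited list gives an IDR score, an SPP signal value, a further score standing for the FDR, and a summit offset in bp. Depth is not in the lists. Summit offsets were counted from the interval start and all positions are 1-based.

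The members and gene lists were chosen with earlier results of these data known. Peaks were ranked by signal value within a list, compared between lists by overlap of at least 1 bp, and joined to GENCODE vM21 and RefSeq (GRCm38.p6, the same build). The 14-base pattern was read by eye from the study's logo and searched for in repeat-masked sequence, on both strands. A C2H2 match was 2 cysteines and 2 histidines at the usual spacing, counted in translated reading frames. The rule for named genes took *Prdm10*, its nearest neighbours, list members with a peak and the 3 peaks ranked on each side. List members without a peak, *Dnmt1*, *Aagab*, *Psip1* and Gm10910 fall outside it and were named after their values were seen. Wilson 95% intervals were computed for shares of peaks. No test was run, since each treatment gave 1 pooled list. Matching and overlap were tested on simulated data, where 200 of 200 planted matches and 90 of 90 planted overlaps were found. Python 3.11.15, scipy 1.17.1, pysam 0.24.0 and matplotlib 3.10.9 were used. Alternatives covered the IDR score, gene window, overlap, rank window, annotation and pattern.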

Additional observations from a re-analysis of the deposited data

How the results depend on the processing

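The 2 EtOH peaks and the 0 4-OHT peaks at *Prdm10* were unchanged with a minimum IDR score of 830, with the gene body alone and with TSSs and 1 kb on both sides. The absence of overlap held with summits within 200 bp, with 50% of the EtOH peak covered and with any 4-OHT peak within 10 kb. The stronger peak, in the top 27.7% of the full list, ranked 146 of 484 (top 30.2%) with overlapping peaks merged. Among promoter peaks it ranked 141 of 396 (top 35.6%). Among the 27 peaks of chromosome 9, where fewer peaks were ranked, it ranked 5 (top 18.5%). The share of like-ranked peaks with a 4-OHT peak was 30% with 10 ranks and 31% with 50 ranks on each side of the stronger peak, in place of 26%, and 10% and 13% around the weaker, in place of 14%. The distance of the stronger summit from the nearest GENCODE TSS was 188 bp, and became 255 bp with protein-coding transcripts alone and 34303 bp with the principal transcript alone. The stronger peak held 1 full match, 2 with 1 mismatch allowed outside the core, 2 with the core alone, 3 with 1 mismatch anywhere, and 1 in unmasked sequence. The PRDM family count of 2 was 2 for gene bodies and 1, *Prdm10* alone, for TSSs with 1 kb on both sides. No paired analysis was possible because the replicates were pooled in each list. Without read counts or values per antibody, neither depth nor replicate spread could be set against any of these values.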

Other observations

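The nearest sequence to the stronger *Prdm10* summit that resembled the pattern was a site that missed it within the core, at chr9:31280743-31280756 on the plus strand, 54.5 bp from the summit and 264.5 bp from the weaker one. It departed from the pattern at position 4, and is shown with 8 flanking bases on each side and capitals at the core positions.
Site with 1 core mismatch, plus strand: cgtctttgctTAGTcccacCCaaaatggcg
A match with at most 1 mismatch anywhere was found in 388 of the 528 EtOH peaks (73.5%) and in 17.8% of windows at the same distance from protein-coding gene starts. Most EtOH peaks were wider than these windows.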
